A study of Mus musculus with 4 samples.

Results

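The metabotropic glutamate receptor genes Grm2, Grm3, Grm4, Grm5, Grm7 and Grm8 were examined in primary cultures of mouse prefrontal cortex (PFC) grown with or without fibroblast growth factor 2 (FGF2). The 6 genes were taken by name, through the gene identifiers of GENCODE M21, from the 55421 genes listed for each library, and all 6 passed the expression filter that left 17144 genes for testing. The cultures came from wild-type C57BL/6 mice at postnatal day 0, whose PFC was freed of meninges, dissociated with papain and kept in culture for 10 days. The comparison was made to learn whether FGF2 acts on mouse cultures as it does on human fetal ones. The treated group had 5 ng/mL FGF2 in the medium and the control group had none, with 2 libraries in each, here called replicates 1 and 2. Both groups were mixed cultures without sorting, so each library holds the RNA of neurons and of every other cell that grew. The methods of the study describe the bulk samples outside 2 human gestational ages as technical replicates, with no separate word on the mouse, so the 2 libraries of a group are, read literally, technical replicates. The p-values then measure technical spread only and leave out variation between cultures.

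Metabotropic glutamate receptors are G protein-coupled receptors that bind glutamate in a large extracellular domain and tune synaptic transmission slowly, in contrast to the glutamate-gated ion channels. Group I receptors, among them mGluR5, act through Gq and phospholipase C and release calcium from internal stores, mostly at postsynaptic sites. Group II receptors (mGluR2 and mGluR3) and group III receptors (mGluR4, mGluR7 and mGluR8) act through Gi/o and lower cAMP, and many of them sit on axon terminals, where they restrain transmitter release. In the cortex mGluR3 and mGluR5 are also known from astrocytes.

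The 6 genes lie on 5 chromosomes of mm10. Grm2 (ENSMUSG00000023192) is the most compact, on chromosome 9 from 106643095 to 106656082 on the minus strand. Grm3 (ENSMUSG00000003974) lies on chromosome 5 from 9485541 to 9725170 and Grm4 (ENSMUSG00000063239) on chromosome 17 from 27422387 to 27521403, both on the minus strand. Grm5 (ENSMUSG00000049583) lies on chromosome 7 from 87584168 to 88134907 on the plus strand. Chromosome 6 holds both Grm8 (ENSMUSG00000024211), from 27275119 to 28135178 on the minus strand, and Grm7 (ENSMUSG00000056755), from 110645581 to 111567230 on the plus strand. The longest transcripts of members of the same group resemble each other but are far from identical, with 68.9% identity over 2370 bases between Grm2 and Grm3, 69.9% over 2639 bases between Grm4 and Grm7, and 70.3% over 2534 bases between Grm4 and Grm8. In a same-strand comparison, the longest transcript of no member shared at least 100 bases at 95% identity or more with a transcript of another gene. Antisense genes were outside that comparison. An antisense gene, Gm20387, shares 130 exonic bases with Grm7 and was counted 19 and 18 times with FGF2 and 30 and 25 times without. Another, Gm28111, shares 470 exonic bases with Grm2 and had no count in any library. The values show that strands were counted apart. Of 785 genes lying almost wholly under a same-strand neighbour 8 had counts, whereas 156 of 466 genes lying under an opposite-strand neighbour did.

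Upstream sequence is shown for the 4 members found in the RefSeq promoter table of GRCm38.p6 (the assembly of mm10), since Grm2 and Grm3 fell with FGF2 while Grm7 and Grm8 did not pass the test. Grm4 and Grm5 had no entry. Each stretch holds the 200 bases from 250 to 51 bases before the RefSeq start nearest to the GENCODE start, written 5′ to 3′ on the strand of the gene, at chr9:106656160-106656359 (minus strand) for Grm2, chr5:9725403-9725602 (minus strand) for Grm3, chr6:110645348-110645547 (plus strand) for Grm7 and chr6:28135197-28135396 (minus strand) for Grm8. Capitals mark matches to the searched motifs, which were the GC box GGGCGG, the TATA box TATAAA, the cAMP response element TGACGTCA, the E boxes CAGCTG and CAGATG, the ETS core GGAAGT and the AP-1 site TGAGTCA, each read on both strands.
Grm2: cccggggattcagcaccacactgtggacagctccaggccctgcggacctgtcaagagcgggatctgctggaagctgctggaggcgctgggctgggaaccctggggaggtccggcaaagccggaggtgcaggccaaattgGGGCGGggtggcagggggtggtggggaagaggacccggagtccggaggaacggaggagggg
Grm3: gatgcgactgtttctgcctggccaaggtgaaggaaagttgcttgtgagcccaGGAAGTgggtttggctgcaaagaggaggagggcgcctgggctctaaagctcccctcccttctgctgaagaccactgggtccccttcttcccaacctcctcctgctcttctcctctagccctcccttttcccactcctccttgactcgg
Grm7: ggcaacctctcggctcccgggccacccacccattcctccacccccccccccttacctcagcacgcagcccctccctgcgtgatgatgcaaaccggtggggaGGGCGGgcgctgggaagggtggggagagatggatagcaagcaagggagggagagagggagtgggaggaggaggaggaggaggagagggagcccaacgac
Grm8: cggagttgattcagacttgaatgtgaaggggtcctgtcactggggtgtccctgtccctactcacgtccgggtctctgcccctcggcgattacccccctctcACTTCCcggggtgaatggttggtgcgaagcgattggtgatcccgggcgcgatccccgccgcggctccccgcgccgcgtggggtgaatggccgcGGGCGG
The windows of Grm2, Grm7 and Grm8 held a GC box, which 24.6% of 32851 promoter windows of the same length also held. It began 111 bases before the start in Grm2, 149 in Grm7 and 56 in Grm8. The ETS core, present in 14.6% of all windows, was found in Grm3, where it began 198 bases before the start, and on the opposite strand in Grm8, where it began 149 bases before it. None of the other motifs was matched in these windows, against 9.14% of all windows for the TATA box, 0.828% for the cAMP response element, 10.3% and 12% for the E boxes and 3.61% for the AP-1 site. The windows end 51 bases before the start, so a motif nearer to it, such as a TATA box, could not be found. The GC content was 69.0% for Grm2, 58.5% for Grm3, 68.0% for Grm7 and 67.0% for Grm8, above the median of 51.5% over all windows. CpG dinucleotides numbered 21 in Grm8, 10 in Grm2, 8 in Grm7 and 3 in Grm3, against a median of 4. Among the 4 members shown, no motif searched was held by both Grm2 and Grm3 and by neither Grm7 nor Grm8. This sorting follows the test result only, and Grm8 was not shown to respond differently from Grm3. The confidence interval of the Grm8 log2 fold change, -0.46 to 0.0016, held the Grm3 estimate of -0.38. A link between these motifs and the response to FGF2 was not tested. Grm4 and Grm5, which also fell, could not be compared.

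The libraries held 9166432 and 9907613 counts on genes with FGF2 and 10460236 and 10799886 without, and 3 counts, the limit that a count of 0 allows, came to 0.277 to 0.331 CPM. Grm6, the receptor of retinal bipolar cells, had no count in any library. CPM divides the counts of a gene by the TMM-adjusted size of its library, so that libraries of different depth can be compared. Fold changes are FGF2 over no FGF2 from the quasi-likelihood test of edgeR, with p-values adjusted by Benjamini-Hochberg over all tested genes.

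The level of 4 of the 6 receptor genes, Grm2, Grm3, Grm4 and Grm5, was lower with FGF2 at an adjusted p threshold of 0.05. None was higher, and Grm7 and Grm8 did not pass. Among all tested genes, 40.5% passed in either direction and 19.9% were lower. The log2 fold change ranged from -1.04 for Grm4 to 0.07 for Grm7, with a median of -0.32 over the 6 members and of -0.00082 over all tested genes. For 5 members, all but Grm7, both FGF2 libraries lay below both no FGF2 libraries, which held for 33.4% of the tested genes. In bulk cultures, fewer cells of a type and less RNA per cell cannot be told apart.

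**Figure D1:**
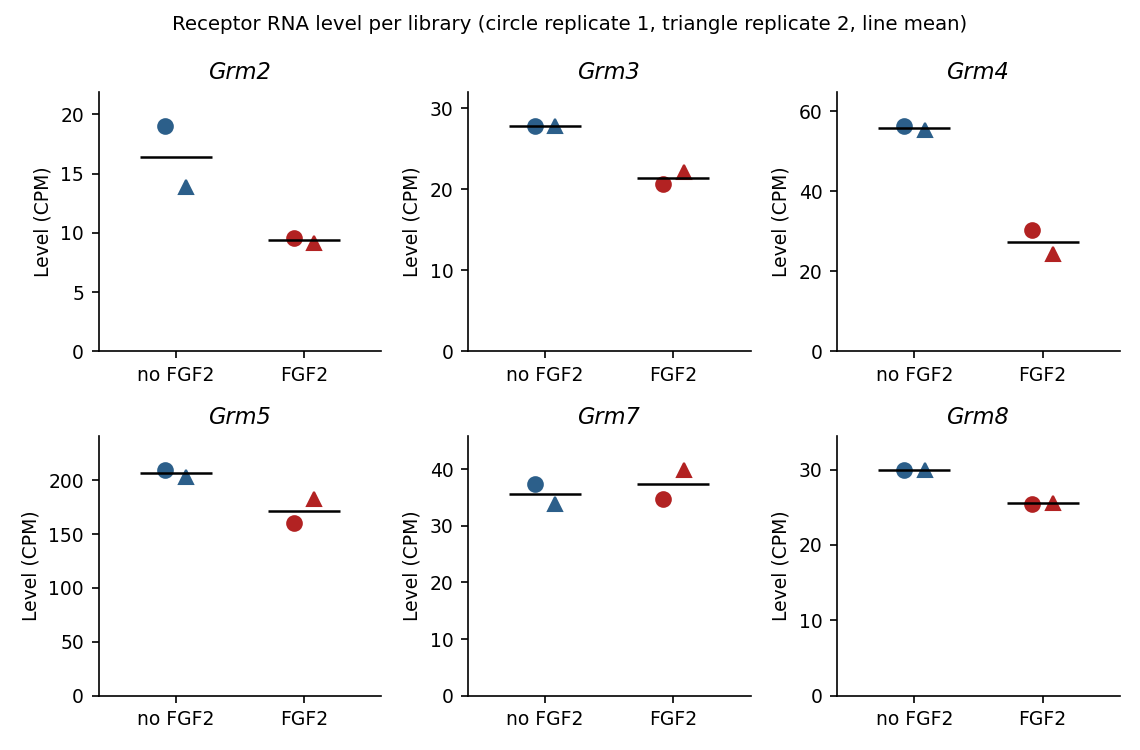
Level of each receptor gene (vertical axis, CPM from 0, with its own scale in each panel) in the 4 libraries, grouped by treatment on the horizontal axis, with circles for replicate 1, triangles for replicate 2 and a line at the mean. The points of Grm4 are farthest apart between the groups, at 30.3 and 24.3 with FGF2 against 56.3 and 55.3 without, and those of Grm7 overlap.

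Grm5, the only group I member among them, had by far the most reads, with a mean level above that of 93.6% of the tested genes. It had 1453 and 1797 counts in FGF2 replicates 1 and 2 and 2200 and 2201 counts in no FGF2 replicates 1 and 2, or 160, 183, 209 and 203 CPM in the same order. Both FGF2 libraries were low and the groups did not overlap, although the FGF2 libraries lay further from each other than the controls did. The mean was 171 ± 16 CPM with FGF2 and 206 ± 4.31 CPM without (SD, n = 2). The log2 fold change of Grm5 was -0.27 (standard error 0.05, 95% interval -0.36 to -0.17, adjusted p = 9.92e-07 from edgeR's test with Benjamini-Hochberg adjustment), a fitted level that fell by 16.8%. Among the members that passed, Grm5 had the smallest fitted change. It was -0.37 without FGF2 replicate 2 and -0.18 without FGF2 replicate 1.

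The group II genes Grm2 and Grm3 both fell. Grm2, which encodes a presynaptic receptor of neurons, was the most weakly expressed member in reads, with 87 and 90 counts with FGF2 and 200 and 150 counts without. These are 9.59 and 9.15 CPM in the FGF2 libraries and 19.0 and 13.9 CPM in the no FGF2 libraries. The FGF2 libraries were both low and close to each other, whereas the no FGF2 libraries were spread out, with replicate 1 high. The means were 9.37 ± 0.309 and 16.4 ± 3.66 CPM (SD, n = 2). Grm2 fell by 0.81 on the log2 scale (standard error 0.17, 95% interval -1.14 to -0.48, adjusted p = 1.09e-05 from the same edgeR test with Benjamini-Hochberg adjustment). Without no FGF2 replicate 1, the high library, the log2 fold change was -0.56 (adjusted p = 0.0432 in edgeR with Benjamini-Hochberg adjustment), against an adjusted p of 5.17e-06 to 0.0164 over 7 scaling, filter and tool alternatives.

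Grm3, which neurons and astrocytes both use, had 187 and 217 counts with FGF2 and 292 and 301 counts without, or 20.6, 22.1, 27.8 and 27.8 CPM. The no FGF2 libraries were level with each other and both FGF2 libraries lay below them without overlap. The mean was 21.3 ± 1.03 CPM with FGF2 and 27.8 ± 0.0075 CPM without (SD, n = 2). The log2 fold change of Grm3 was -0.38 (standard error 0.12, 95% interval -0.62 to -0.14, adjusted p = 0.00697 from edgeR with Benjamini-Hochberg adjustment). This call depended on the tool, since DESeq2 gave the same -0.38 with an adjusted p of 0.137, the highest of 7 scaling, filter and tool alternatives that began at 0.00365. The intervals of Grm2 and Grm3 overlap. The log2 ratio of Grm2 to Grm3 within a library was -1.10 and -1.26 with FGF2 and -0.54 and -1.0 without, lower in both FGF2 libraries than in either control. Such a lack of overlap was common, since it held for 13 of the 15 pairs of members. The 15 pairs are built from 6 genes and are not independent. No share over pairs of other genes was computed for comparison.

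Of the group III genes Grm4 passed the test, and Grm7 and Grm8 did not. Grm4 showed the largest change of the members, with 275 and 239 counts with FGF2 against 592 and 599 counts without. The levels were 30.3 and 24.3 CPM with FGF2 and 56.3 and 55.3 CPM without, so both FGF2 libraries were well below both controls, which were close to each other. The mean of Grm4 was 27.3 ± 4.25 CPM with FGF2 and 55.8 ± 0.719 CPM without (SD, n = 2). The change was -1.04 on the log2 scale (standard error 0.10, 95% interval -1.23 to -0.84, adjusted p = 6.49e-24 from edgeR with Benjamini-Hochberg adjustment), a fitted level that fell by 51.2%. With a library left out it lay between -1.20 and -0.88.

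Grm7 encodes the receptor of presynaptic active zones that responds only to high glutamate. It had 316 and 392 counts with FGF2 and 393 and 367 counts without, or 34.8, 39.9, 37.4 and 33.9 CPM. The highest and the second lowest library were both FGF2 libraries, so the groups overlapped. The means were 37.3 ± 3.56 CPM with FGF2 and 35.7 ± 2.48 CPM without (SD, n = 2). The log2 fold change of Grm7 was 0.07 (standard error 0.10, adjusted p = 0.640 from edgeR with Benjamini-Hochberg adjustment), with a 95% interval from -0.13 to 0.27. That interval does not reach the estimate of any of the 4 genes that fell, but a change within it was not detectable with these libraries. The sign of the estimate turned to -0.033 without FGF2 replicate 2 and to -0.00052 without no FGF2 replicate 2.

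Grm8, another presynaptic group III receptor gene, had 231 and 252 counts with FGF2 and 314 and 324 counts without. In CPM these were 25.5 and 25.6 with FGF2 and 29.9 and 29.9 without, so the libraries of a group lay very close and the groups did not overlap. The means were 25.5 ± 0.116 and 29.9 ± 0.0291 CPM (SD, n = 2). Its log2 fold change of -0.23 did not pass (standard error 0.12, 95% interval -0.46 to 0.0016, adjusted p = 0.11 from edgeR with Benjamini-Hochberg adjustment). The standard error rests on a spread that edgeR estimates with the help of other genes, not on these 4 values alone. With each library left out the estimate stayed at -0.23.

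**Figure D2:**
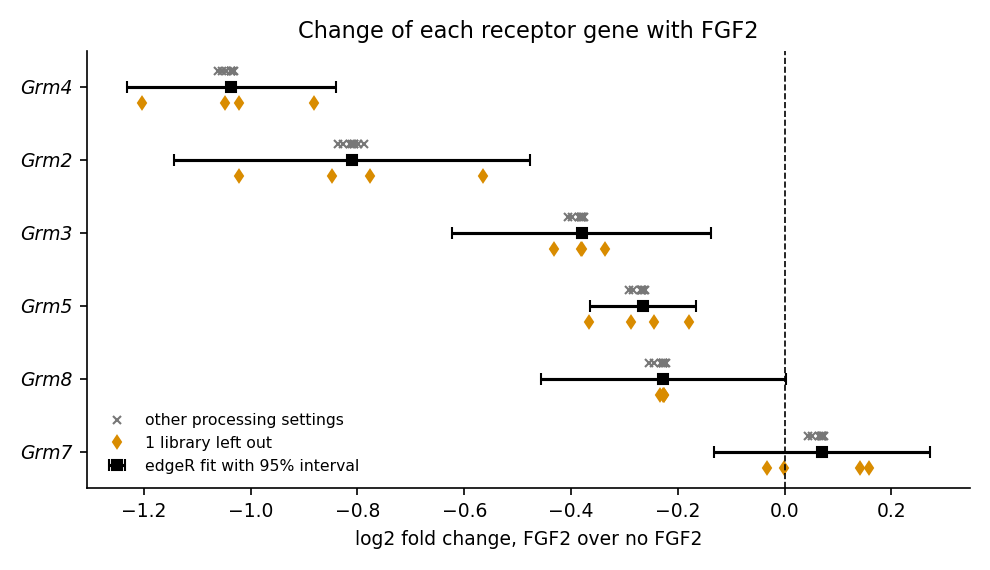
Log2 fold change of each receptor gene, FGF2 over no FGF2 (horizontal axis), with the edgeR estimate and its 95% interval (squares and bars), the estimates under other processing settings (crosses) and those with 1 library left out (diamonds). The estimates of Grm4, Grm2, Grm3, Grm5 and Grm8 stay below 0 throughout, although the interval of Grm8 reaches past 0. Those of Grm7 lie on both sides of 0 when a library is left out.

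Reads per gene depend on transcript length, so levels were compared between members per kb of annotated exon. Without FGF2 the order was Grm5 at 20.1 ± 0.420 CPM per kb, Grm4 at 9.34 ± 0.120, Grm3 at 9.12 ± 0.0025, Grm7 at 6.06 ± 0.421, Grm2 at 3.36 ± 0.748 and Grm8 at 3.02 ± 0.0029 (SD, n = 2). In that order the libraries of Grm2 and Grm8 overlapped. With FGF2 the order was Grm5 at 16.7 ± 1.56, Grm3 at 7.0 ± 0.337, Grm7 at 6.34 ± 0.604, Grm4 at 4.57 ± 0.711, Grm8 at 2.58 ± 0.0117 and Grm2 at 1.91 ± 0.063 CPM per kb (SD, n = 2). The libraries of Grm3 and Grm7 overlapped there. Grm4 thus stood above Grm3 and Grm7 without FGF2 and below both with it. Per kb of the longest transcript the first 4 places without FGF2 were the same, with Grm4 at 12.1 and Grm3 at 9.12 CPM per kb. With FGF2, Grm7 at 8.87 then stood above Grm3 at 7.0 and Grm4 at 5.93.

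The makeup of the receptor RNA within a library does not depend on how the libraries were scaled. It was measured as each member's share of the summed counts per kb of exon over the 6 genes. Grm4 made up 13.4% and 10.1% with FGF2 and 18% and 18.6% without, a mean of 11.7 ± 2.34% against 18.3 ± 0.376% (SD, n = 2). The share of Grm7 went the other way, with 15.6% and 16.8% with FGF2 and 12.2% and 11.6% without. Its own level overlapped between the groups (log2 fold change 0.07), and a share also depends on the levels of the other members. The groups did not overlap for any share but that of Grm3. The share of Grm4 was above that of Grm7 in both no FGF2 libraries and below it in both FGF2 libraries. The log2 ratio of Grm4 to Grm7 was -0.20 and -0.71 with FGF2 and 0.59 and 0.71 without, a difference of -1.10. This pair was among the 13 of 15 whose ratios did not overlap between the groups. Grm5 held the largest share in each library, at 41.2% and 44.2% with FGF2 and 39.1% and 39.8% without. The share of Grm8 was 6.79% and 6.41% with FGF2 and 5.78% and 6.07% without, and that of Grm2 was 5.17% and 4.63% against 7.45% and 5.68%. Grm3 kept to 17.8% and 17.9% with FGF2 and 17.4% and 18.3% without, where the groups overlapped. The exact permutation test (two-sided, 6 shares compared) gave p = 0.333 for each member but Grm3, which is the smallest that 2 libraries against 2 allow, and p = 1 for Grm3. No share can therefore pass a threshold of 0.05 in this design, with or without adjustment.

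**Figure D3:**
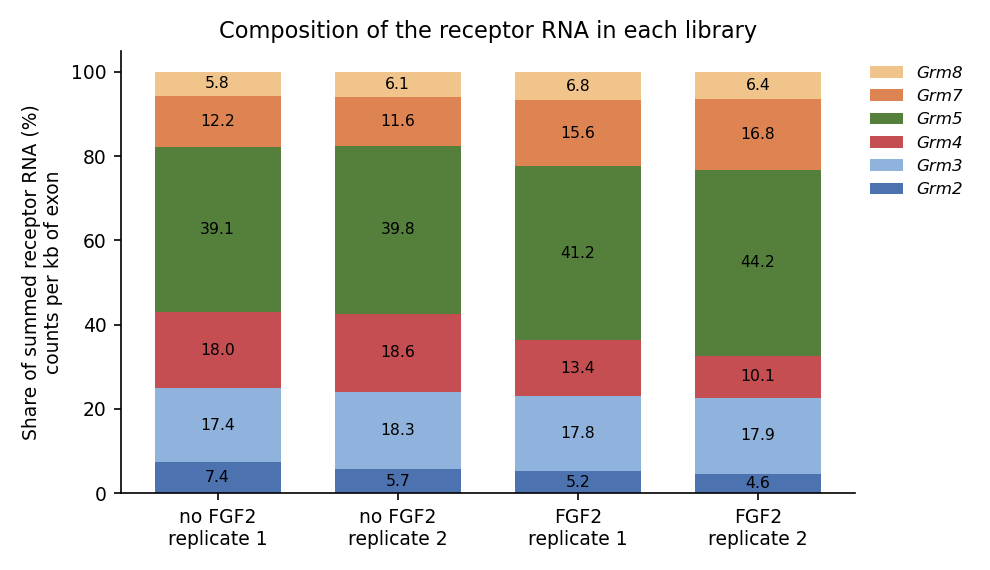
Share of each member in the summed receptor RNA (vertical axis, % of counts per kb of exon over the 6 genes) in each of the 4 libraries (horizontal axis). The block of Grm4 is thinner in the FGF2 libraries, at 13.4% and 10.1% against 18% and 18.6%. That of Grm7 is thicker, although its level in CPM overlapped between the groups.

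Summed over the 6 genes, receptor RNA was 281 and 304 CPM with FGF2 and 380 and 364 CPM without, or 292 ± 16.1 against 372 ± 11.1 CPM (SD, n = 2). Grm5 alone supplied most of these reads in each library. Both FGF2 sums were below both control sums.

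The partners that carry the receptor signal were described by lists of genes. Of 12 genes of the Gq and phospholipase C arm, which serves mGluR5, 7 fell, 2 rose and 3 did not pass, with a median log2 fold change of -0.28. Plcb1, the phospholipase C of forebrain neurons, fell by 0.61 (adjusted p = 6.89e-33), and Prkce, a protein kinase C, fell by 0.67 (adjusted p = 5.26e-40, both from edgeR with Benjamini-Hochberg adjustment). Both were at 149 to 163 CPM with FGF2 and at 237 to 254 CPM without. The isoforms Plcb3 and Itpr2 rose instead. Itpr2, an IP3 receptor, was at 291 and 283 CPM with FGF2 and at 60.2 and 60.3 CPM without, a log2 fold change of 2.25, and Plcb3 had a log2 fold change of 1.03 (adjusted p = 3.09e-25 from edgeR with Benjamini-Hochberg adjustment). Prkca was at -0.00 and Itpr1 at -0.08, with adjusted p = 0.953 and 0.322 in edgeR with Benjamini-Hochberg adjustment.

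Of 12 genes of the Gi/o and adenylyl cyclase arm, which serves groups II and III, 7 fell, 2 rose and 3 did not pass, with a median of -0.36. Gnao1, the abundant Go alpha subunit of neurons, was at 918 and 840 CPM with FGF2 and fell by 0.33 on the log2 scale. Gnaz, another subunit of this family, fell by 0.96. The cyclases Adcy1 and Adcy5, which make cAMP, fell by 0.56 and by 0.81. The adjusted p of these 4 genes lay between 5.39e-46 for Adcy1 and 1.51e-21 for Gnao1 (edgeR, Benjamini-Hochberg adjustment). Gnai3 at 0.14 and Adcy8 at -0.06 did not pass (adjusted p = 0.101 and 0.676 in edgeR with Benjamini-Hochberg adjustment).

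Of 9 genes for proteins that bind these receptors, 6 fell, 2 rose and 1 did not pass, with a median of -0.40. Homer1 and Homer2, scaffolds that hold group I receptors at the postsynaptic density, fell by 0.49 and by 0.82. The related Homer3 rose by 0.40 (adjusted p = 0.00287 in edgeR with Benjamini-Hochberg adjustment). Homer1 was at 60.5 and 64.1 CPM with FGF2 and at 86.2 and 88.4 CPM without. Ncdn (neurochondrin), which binds mGluR5, fell by 0.59, and the PDZ scaffold Grip1 fell by 0.49. The adjusted p of Homer1, Homer2, Ncdn and Grip1 lay between 1.71e-36 for Ncdn and 1.12e-09 for Homer1 (edgeR, Benjamini-Hochberg adjustment). Pick1, which binds the tail of mGluR7, was at 0.18 (adjusted p = 0.374 in edgeR with Benjamini-Hochberg adjustment).

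Of 11 genes of receptor desensitization and RGS proteins, 7 fell, none rose and 4 did not pass, with a median of -0.37. Rgs8, which speeds the shut-off of G proteins, was at 31.1 and 28.8 CPM with FGF2 and at 64.5 and 58.7 CPM without, and fell by 1.04. The arrestin gene Arrb1 fell by 0.41, Rgs2 fell by 0.58 and the receptor kinase gene Grk3 fell by 0.37. Their adjusted p lay between 1.82e-26 for Rgs8 and 6.74e-06 for Grk3 (edgeR, Benjamini-Hochberg adjustment). Rgs4 at 0.06 and Arrb2 at 0.05 did not pass (adjusted p = 0.489 and 0.744 in edgeR with Benjamini-Hochberg adjustment).

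Marker genes of the cell types in the cultures moved between the same libraries. Of 12 pan-neuronal markers 10 fell and 1 rose (median -0.46, summed level 3733 to 3887 CPM with FGF2 and 5460 to 5485 CPM without). Of 10 excitatory neuron (EN) markers 5 fell and none rose (median -0.39, 585 to 604 against 801 to 823 CPM), and of 10 inhibitory neuron (IN) markers 10 fell (median -0.98, 781 in both against 1364 to 1407 CPM). Of 10 tested astrocyte markers 8 rose and 1 fell (median 0.41, 12629 to 12753 against 7743 to 7793 CPM), and 9 of 9 tested oligodendrocyte lineage markers rose (median 2.05, 1864 to 1873 against 560 to 569 CPM). Of 8 progenitor and proliferation markers 4 fell and 1 rose (median -0.46, 312 to 319 against 362 to 367 CPM). Microglia markers were low throughout, with 3 of 4 tested risen and sums of 16.4 to 19.4 against 8.09 to 8.87 CPM. Endothelial markers summed to 7.42 to 9.70 CPM with FGF2 and 4.95 to 8.04 CPM without, with Cldn5 and Tie1 at 0 and 1 of 3 tested risen and 1 fallen. Meningeal and mural markers summed to 62.9 to 66.3 against 50.3 to 51.9 CPM, with 2 risen and 2 fallen of 6 tested. Grm2, Grm3, Grm4 and Grm5 thus fell in the libraries in which most neuronal markers tested were lower and most astrocyte and oligodendrocyte lineage markers higher, and the part of these cells in the receptor levels was not tested. The log2 fold changes of Grm2 (-0.81) and Grm4 (-1.04) were below the pan-neuronal median, and those of Grm3, Grm5, Grm7 and Grm8 were above it. Single pan-neuronal markers ranged from -1.10 to 0.38, so all members lay within their range. Against the IN median of -0.98, Grm2 was above and Grm4 slightly below.

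**Figure D4:**
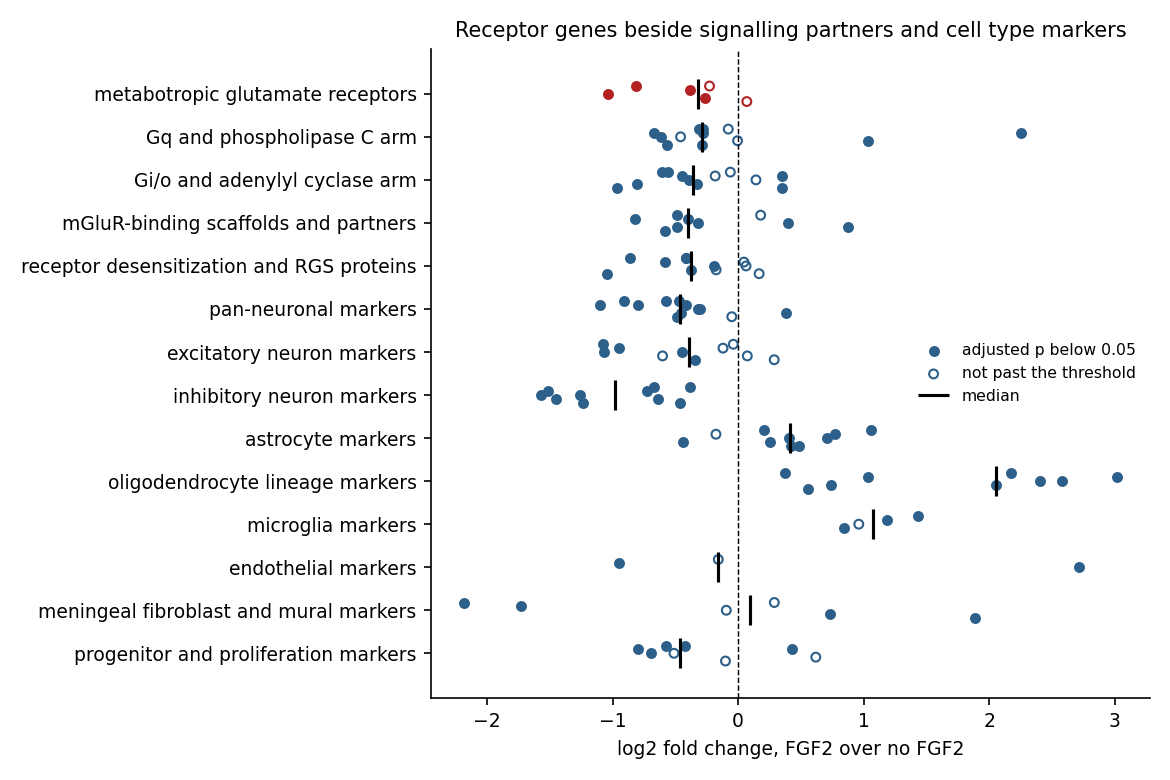
Log2 fold change, FGF2 over no FGF2 (horizontal axis), of the 6 receptor genes (red) and of the tested genes of each signalling and marker list (blue, 1 row each), with filled points for an adjusted p below 0.05, open points for genes that did not pass and a bar at the median. The receptor genes have a median of -0.32 and the neuronal lists have medians from -0.98 to -0.39, while the oligodendrocyte lineage markers lie to the right at a median of 2.05.

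For each member that fell, the tested genes with the most similar course over the 4 libraries were found by the Euclidean distance between centred log2 CPM values, among 16756 genes whose mean reached 10 counts. Grm5 was closest to Lhfpl4 (distance 0.0052), Usp14 (0.017) and Fgf14 (0.019). Lhfpl4, a partner of GABA-A receptors, had 55.5, 63.6, 72.6 and 70.6 CPM in FGF2 replicates 1 and 2 and no FGF2 replicates 1 and 2. Grm3 was closest to Synj1 (0.014), Nomo1 (0.017) and Aimp2 (0.019). Synj1, the phosphatase synaptojanin of vesicle recycling, had 207, 223, 278 and 277 CPM in the same order. Grm4 was closest to Dact1 (0.024), Ret (0.044) and Tctex1d4 (0.050). Dact1, a regulator of Wnt signalling, had 23.1, 18.7, 42.4 and 41.9 CPM. Grm2 was closest to the kinase gene Camkk1 (0.068), to ENSMUSG00000118462 (0.088) and to Rtn4rl2 (0.093). Camkk1 had 10.7, 10.3, 20.1 and 15.2 CPM. Its high value in no FGF2 replicate 1, as in Grm2, follows from the choice by distance. Fgf14, Aimp2, Tctex1d4 and ENSMUSG00000118462 did not themselves pass (adjusted p = 0.0519 to 0.0717 from edgeR with Benjamini-Hochberg adjustment). With 4 libraries, such closeness describes these samples only.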

How the data were processed

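The data are 4 RNA-seq libraries of cultured P0 mouse PFC. The authors mapped paired reads to mm10 with HISAT2 2.1.0, kept reads with a mapping quality of at least 20 and counted them per gene with HTSeq 0.11.2, and the deposited values are raw counts per gene. The annotation release and strand setting are not given in the sources used here. Of the 55421 genes, 55240 were matched to GENCODE M21, and 5 tallies that name no gene were left out (43.2% to 45.9% of tallied read pairs in no feature, 1.47% to 1.76% ambiguous).

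Counts were scaled by TMM (factors 0.992 to 1.01) and filtered and tested with edgeR 4.0.16 in R 4.3.3 (robust quasi-likelihood test, Benjamini-Hochberg adjustment over 17144 genes, threshold 0.05, n = 2 libraries per group). Replicates differed by more than sampling noise (chi-square per degree of freedom 2.28 with FGF2 and 1.76 without). Floors cover counting error only. Transcripts were compared with BLAST 2.17.0. Alternatives were scaling by RLE, by upper quartile or by total counts, no filter, at least 10 counts in every library, DESeq2 1.42.0, limma-voom (limma 3.58.1), a replicate block, a threshold of 0.01, each library left out and, for shares, other length scalings. The members, lists and tests were chosen with earlier results of these data known. Of each signalling list, the genes named are up to 4 of smallest adjusted p among those that passed and up to 2 of highest level that did not, and of each member that passed, the 3 genes closest in course. Homer3 is named outside this rule. Marker lists are given by counts and sums. A further gene that this rule takes is not reported here.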

Additional observations from a re-analysis of the deposited data

How the results depend on the processing

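Direction and call held for Grm2, Grm4 and Grm5 under every alternative run. The count of genes past the threshold was 4007 with DESeq2 in place of 6949, and Grm3, at -0.38 with an adjusted p of 0.137, did not pass there, which left 3 of 6 members. Over the scaling, filter and tool alternatives the adjusted p of Grm3 ranged from 0.00365 to 0.137 and that of Grm8 from 0.0700 to 0.416, so Grm8 passed under none. With each library left out, the log2 fold change was between -1.02 and -0.56 for Grm2, -0.43 and -0.34 for Grm3, and -1.20 and -0.88 for Grm4. It was between -0.37 and -0.18 for Grm5, between -0.033 and 0.16 for Grm7, and at -0.23 for Grm8. A left-out group of 1 library is assumed to vary like the other. Grm7 turned to -0.033 without FGF2 replicate 2 and to -0.00052 without no FGF2 replicate 2. The share of Grm3, higher by 0.0062 percentage points with FGF2, turned to -0.137 per kb of the longest transcript, -0.176 without division by length, -0.042 without FGF2 replicate 2 and -0.419 without no FGF2 replicate 1, and with a library left out lay between -0.419 and 0.432. The shares of the others kept their direction, at -2.54 to -0.781 points for Grm2, -8.24 to -4.93 for Grm4, 1.76 to 4.71 for Grm5, 3.75 to 4.92 for Grm7 and 0.490 to 0.862 for Grm8. The causes were not tested. At a threshold of 0.01, 5427 genes passed. The replicate numbers are not stated to pair libraries, and the difference of replicate 1 and 2 in 1 group correlated with that in the other at r = 0.0049 over 12670 genes, which are not independent replicates. With the replicate number as a block, 6814 genes passed, and 4 members did, as without the block. The log2 fold change was then -0.80 for Grm2, -0.38 for Grm3, -1.04 for Grm4, -0.27 for Grm5, 0.07 for Grm7 and -0.23 for Grm8. The lower counts of Grm2, 87 to 200 per library, leave it the widest interval of the members.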
